A study of Mus musculus with 17 samples.

Results

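The lungL library holds single cells of the lung-derived CD44low line of the MMTV-PyMT breast cancer model, and its 235 cells are described here across genes. A cell was a barcode with more than 500 genes detected and less than 10% of its counts in the 13 genes whose symbol starts with mt-. These limits kept 235 of 2808 lungL barcodes. The same limits kept 221 cells of lungH, the lung-derived CD44high line, and 348 cells of lymphH, the lymph node-derived CD44high line, so that lungL gave 235 of 804 cells.

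The lines came from adult female FVB/NJ mice that carried the MMTV-PyMT transgene, in which the mouse mammary tumor virus promoter drives the polyoma virus middle T antigen, mainly in the mammary epithelium. Organs with tumors were dissociated, cancer cells were enriched in culture, partly by how their adhesion under trypsin differs from that of fibroblasts, and EpCAMhigh cells were sorted by CD44 staining. No drug or other treatment separated the groups, which differed in the organ and in the CD44 gate. Each single-cell line was 1 library, whereas bulk RNA-seq covered 14 libraries of 7 groups, 2 each from clonal isolates of different mice: lung CD44low, lung CD44high, lymph node (LN) CD44low and CD44high, bone marrow (BM) CD44low and CD44high, and the primary tumor of the mammary fat pad (MFP). The lungL cells are therefore cultured cells deposited as 1 table. The study's methods mention replicates from different mice for the single cells too. The title of the lungL sample names replicate 1, but whether its merged counts pool more than 1 isolate is not given in the sources used here. Cells could not be assigned to isolates, so that the table was treated as 1 sample and the spread between isolates is unknown for the single cells.

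The lungL cells held 920 to 23277 counts each, with a median of 9698 counts and 2809 genes. The medians were 7023 counts and 2244 genes in lungH, and 13607.5 counts and 3880 genes in lymphH. The lungL cell with the fewest genes had 501, and the barcode just outside the limit had 495. The mitochondrial share had a median of 0.285% in lungL, 1.48% in lungH and 0.696% in lymphH. No cells with identical counts were found, and barcodes are numbered in the files, so that barcodes shared by libraries could not be counted. Levels below are summed counts per 10000 counts of a library's cells, with exact Poisson 95% intervals, and shares of cells have exact binomial 95% intervals, both of which cover counting error only. With 1 library a group, no test between lines was possible, and a gene was counted as higher or lower at a ratio of at least 2 when it had at least 1 count per 10000 in either library. A gene that reached this level through 1 library alone had a difference built in, so that the counts over a list are descriptions. The kit reads 3′ ends and the counts were not corrected for length, so that levels of different genes are not compared. Where a value is called a count, it is the whole count of the library.

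Smooth muscle cells and myofibroblasts share an actin and myosin apparatus that lets them contract against the matrix around them, and myofibroblasts also lay down that matrix. Both states are known to be driven by transforming growth factor beta and by tension on the actin cytoskeleton, through factors that include serum response factor and the YAP-TEAD complex. In lung tissue such cells surround airways, vessels and alveoli. Mammary tumors of the PyMT model are epithelial, and from which cells the lungL line arose was not tested.

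The 5 genes that mark the lungL cells were far above both other lines. *Acta2*, smooth muscle alpha-actin, had 44.7 counts per 10000 in lungL (95% interval 43.8 to 45.6), 0.0544 in lungH (9 counts) and no count in lymphH. *Bgn*, the small matrix proteoglycan biglycan, had 11.8 (95% interval 11.3 to 12.2) against 1 count in lungH and 3 counts in lymphH. *Col1a1*, the alpha 1 chain of collagen I, had 4.43 (95% interval 4.15 to 4.72) against 0.0242 in lungH and 0.0247 in lymphH. These 3 genes were thus close to absent from both CD44high lines. *Mgp*, the matrix Gla protein that inhibits calcification, had 25.4 (95% interval 24.7 to 26) in lungL, 1.97 in lungH and 0.0791 in lymphH. *Ccn2*, the matrix protein known as connective tissue growth factor, had 25.3 (95% interval 24.6 to 26), 0.871 and 0.603. *Mgp* was therefore 12.9-fold higher than in lungH and 321-fold higher than in lymphH, and *Ccn2* 29.1-fold and 42-fold.

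In the mm10 genome with the GENCODE vM21 annotation, these protein-coding genes lie as follows. *Acta2* (ENSMUSG00000035783.9) spans chromosome 19 from 34241090 to 34255590 on the minus strand, *Bgn* (ENSMUSG00000031375.17) chromosome X from 73483602 to 73495933 on the plus strand, *Col1a1* (ENSMUSG00000001506.10) chromosome 11 from 94936224 to 94953042 on the plus strand, *Mgp* (ENSMUSG00000030218.2) chromosome 6 from 136872435 to 136875823 on the minus strand, and *Ccn2* (ENSMUSG00000019997.11) chromosome 10 from 24595442 to 24598683 on the plus strand.

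The share of lungL cells with a count differed between the markers. With every cell thinned to 1000 counts, which left out 2 lungL, 1 lungH and 42 lymphH cells, *Acta2* and *Ccn2* each had a count in 68.7% of lungL cells (95% interval 62.3% to 74.6% for *Acta2*). The shares were 53.2% for *Mgp*, 52.8% for *Bgn* and 37.3% for *Col1a1*. In lungH the shares were 7.73% for *Ccn2*, 11.8% for *Mgp*, 0.455% for *Col1a1* and 0% for *Acta2* and *Bgn*. In lymphH they were 6.54%, 0.654%, 0.327% and 0% for the same genes. Without thinning, *Acta2* had a count in 88.5% and *Col1a1* in 68.9% of lungL cells. Levels per cell for *Acta2* ran from 0 to 325, with a median of 22.3 counts per 10000, and those for *Ccn2* ran from 0 to 107, with a median of 20.7. The share of cells with a count moves with depth. The lungL barcodes with at most 250 genes had 63.6 counts per 10000 for *Acta2* and 35.7 for *Mgp*, against 44.7 and 25.4 in the kept cells, and what part RNA free of cells had in these shares was not tested.

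**Figure D1:**
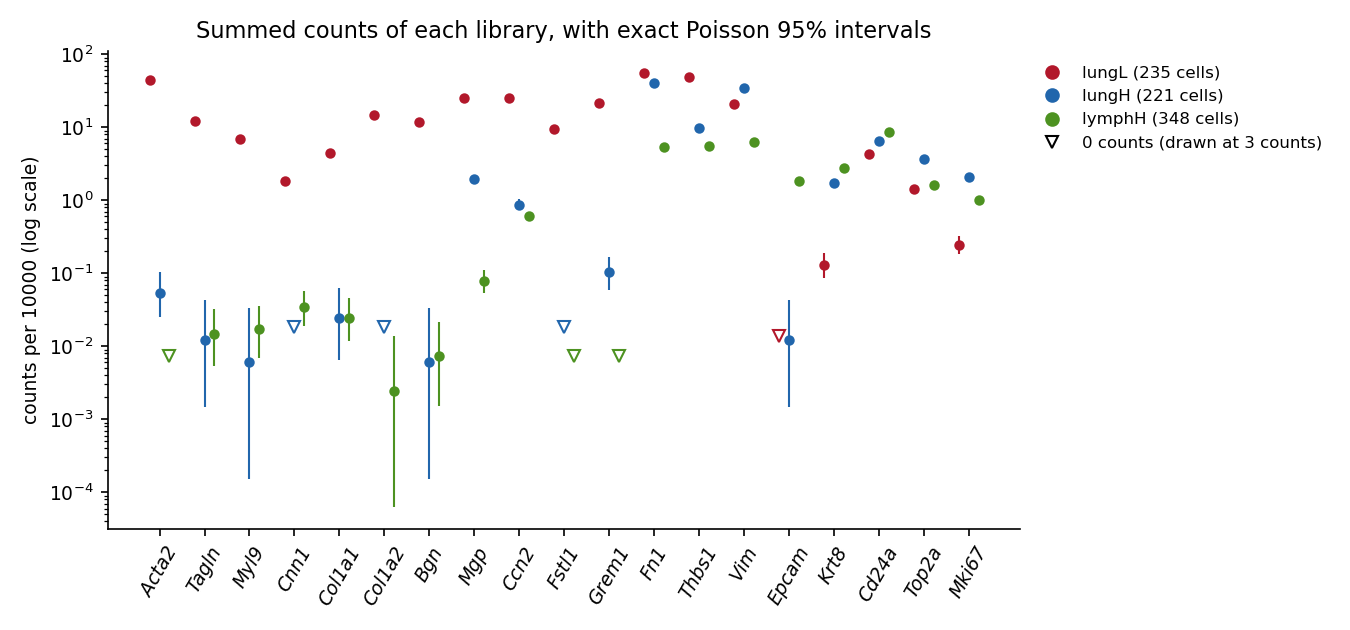
Counts per 10000 (log axis) of 19 genes in the lungL, lungH and lymphH libraries, with points for the level, bars for the exact Poisson 95% interval and open triangles at 3 counts where a library had none. The matrix and contractile genes of lungL lie above both other libraries, and *Acta2* stands at 44.7 in lungL against 0.0544 in lungH.

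In the lungL single cells, the transcripts of the sorted proteins did not follow the names of the gates. *Epcam*, the epithelial adhesion protein of the EpCAMhigh gate, had 0 of 2150544 lungL counts, which allows up to 0.01395 per 10000, against 2 counts in lungH and 733 counts in lymphH. *Epcam* was also listed at 0 TPM in both bulk lung CD44low libraries, with 0.23 and 0.86 TPM in lung CD44high and 941 and 820.1 TPM in LN CD44high. *Cd44*, the hyaluronan receptor of the other gate, had 8.57 counts per 10000 in lungL against 4.91 in lungH and 4.94 in lymphH, ratios of 1.75 and 1.74, both under 2. In bulk, *Cd44* had 12.2 and 21.6 TPM in lung CD44low and 21.9 and 12.1 TPM in lung CD44high, which overlapped, and 49 and 52.3 TPM in LN CD44high, which was higher in both libraries. *Cd44* transcript was thus no lower in lungL than in lungH and lymphH, whereas bulk lung CD44low was lower than LN CD44high. The label CD44low is kept as the name of the line only.

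Of 2465 genes considered against lungH, 365 were at least 2-fold higher in lungL (14.8%) and 312 lower (12.7%), with a median log2 ratio of -0.018. Of 2467 genes considered against lymphH, 429 were higher (17.4%) and 333 lower (13.5%), with a median log2 ratio of -0.051. Both comparisons use the same lungL cells. Of the 15 genes with the largest ratios in each, 12 were the same: *Acta2*, *Col1a2*, *Cck*, *Bgn*, *Tagln*, *Grem1*, *Fstl1*, *Col6a3*, *Col5a2*, *Nrn1*, *Mgp* and *Igfbp4*. None of the 15 with the smallest ratios were shared. The genes with most counts in lungL were *Fth1*, the ferritin heavy chain (138 per 10000), and the cytoplasmic actins *Actb* (110.3) and *Actg1* (98.4). *Acta2* also stood among the 15 genes with most counts, beside the matrix genes *Fn1* and *Thbs1* and genes of ribosomes and translation.

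**Figure D2:**
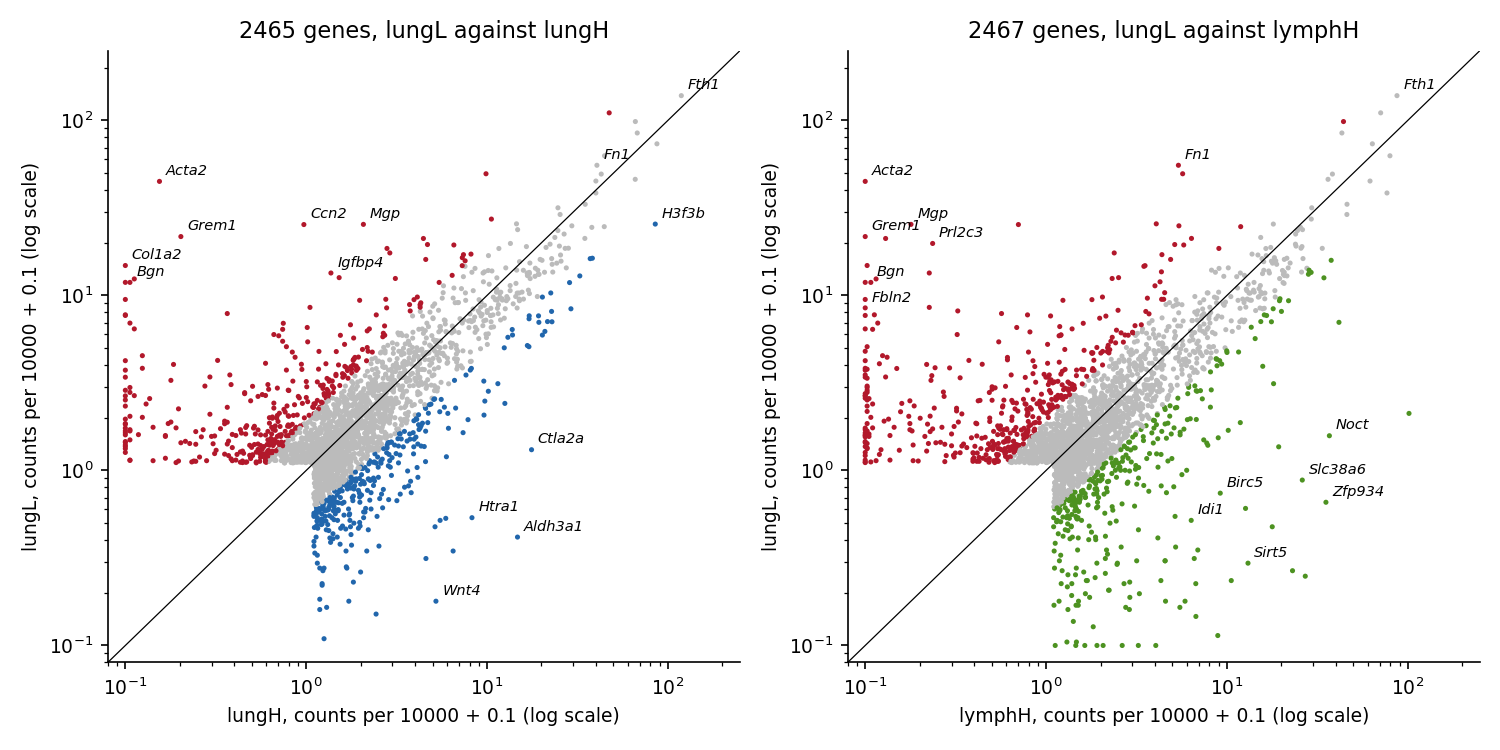
Counts per 10000, with 0.1 added, of each gene considered in lungL (vertical log axis) against lungH or lymphH (horizontal log axis), with genes at least 2-fold apart in color. *Acta2*, *Bgn* and *Col1a2* lie at the upper left of both panels, at 0 to 9 counts in the other library.

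Contractile genes had more counts in lungL than in the other lines. Of 17 members, 12 were considered and were higher in both comparisons, but 7 of them reached the level through lungL alone. The other 5 (*Cnn2*, *Tpm1*, *Cald1*, *Flna* and *Actn1*) reached it in all 3 libraries. The list summed to 147 counts per 10000 in lungL, 23.4 in lungH and 18.6 in lymphH. *Tagln*, the actin-binding protein transgelin, had 12.3 in lungL, and in all 2 counts in lungH and 6 in lymphH. *Myl9*, a regulatory light chain of smooth muscle myosin, had 6.85 in lungL against 1 and 7 counts. *Mylk*, the kinase that phosphorylates this light chain, had 2.3 in lungL, 0.0302 in lungH and 0.00989 in lymphH. *Lmod1*, a nucleator of actin filaments in smooth muscle, had 1.94 in lungL against 1 count in lungH and 0.0742 per 10000 in lymphH. These genes had few or no counts outside lungL.

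Other members of the apparatus were shared by the lines at lower levels. *Cnn2*, a calponin, was 6.21-fold higher than in lungH and 7.62-fold higher than in lymphH. *Tpm1*, a tropomyosin, was 2.99-fold and 3.41-fold higher. Calponin 1, which is more restricted to smooth muscle, had 401 counts in lungL, 0 in lungH and 14 in lymphH, which puts *Cnn1* at least 103-fold above lungH. The lungL barcodes with at most 250 genes, 2454 barcodes with 752637 counts in all, summed to 130 contractile counts per 10000, so that these transcripts were also common outside the kept cells.

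The bulk libraries gave the same direction with replicates. There, levels are TPM, contrasts are on the log2(TPM + 1) scale with limma over 15348 genes, and a gene rose or fell when its log2 fold change passed 2 either way with a Benjamini-Hochberg adjusted p under 0.05. Against lung CD44high, 1350 genes rose in lung CD44low (8.8%) and 382 fell (2.49%), but 761 rose without lung CD44low replicate 2, and 755 fell with a pseudocount of 0.1. Against LN CD44high, 2177 rose (14.2%) and 944 fell (6.15%), or 1722 and 1214 with TPM scaled by median ratios, and 1605 fell with a pseudocount of 0.1. In a bulk sample, fewer cells of a type and less RNA per cell cannot be told apart. Of 14 contractile genes tested, 9 rose against lung CD44high and 9 against LN CD44high, and none fell, with median log2 fold changes of 3.66 and 2.86 beside 0.0082 and 0.28 over all genes tested. *Acta2* had 657 and 711 TPM in lung CD44low, 1.36 and 0.56 TPM in lung CD44high and 0 and 0.82 TPM in LN CD44high. The lung CD44low libraries were far above the other 4, and *Acta2* rose by 8.48 ± 0.32 (SE) against lung CD44high (limma, adjusted p = 3.24e-08, n = 2 and 2) and by 8.99 ± 0.32 against LN CD44high (limma, adjusted p = 1.85e-08). *Tagln* had 62.4 and 80.2 TPM in lung CD44low, was listed at 0 in both lung CD44high libraries and had 0.14 and 0.1 TPM in LN CD44high. *Cald1*, the actin-binding caldesmon, had 3447 and 3401 TPM in lung CD44low, 589 and 690.3 TPM in lung CD44high and 459.9 and 351 TPM in LN CD44high, so that it was abundant in all 3 groups and highest in lung CD44low. *Actg2* was an exception, with 0.39 and 0.92 TPM in lung CD44low, below the level needed for testing.

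Promoters of contractile and YAP-TEAD target genes are shown for 3 members, as the letters in which motifs known to bind TEAD and serum response factor were looked for. The sequences are the 250 bases before the start annotated by RefSeq on GRCm38.p6, written 5′ to 3′ on the strand of the gene, with the motif in capitals. *Acta2* (chr19:34255374-34255623, minus strand) held the TEAD motif GGAATG starting 146 bases upstream. *Myl9* (chr2:156775214-156775463, plus strand) held a CArG box, the motif of serum response factor, starting 161 bases upstream. *Ccn1* (chr3:145649986-145650235, minus strand) held the TEAD motif on its other strand, CATTCC, starting 103 bases upstream. The RefSeq start used lies 217 bases inside the GENCODE span of *Acta2* and 44 bases inside that of *Myl9*, so that positions upstream hold for the RefSeq start only.
Acta2: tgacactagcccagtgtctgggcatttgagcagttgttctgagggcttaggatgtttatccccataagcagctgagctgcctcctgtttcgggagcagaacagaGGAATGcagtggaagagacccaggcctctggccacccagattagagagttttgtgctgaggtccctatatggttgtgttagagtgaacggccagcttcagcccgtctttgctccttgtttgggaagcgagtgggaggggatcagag
Myl9: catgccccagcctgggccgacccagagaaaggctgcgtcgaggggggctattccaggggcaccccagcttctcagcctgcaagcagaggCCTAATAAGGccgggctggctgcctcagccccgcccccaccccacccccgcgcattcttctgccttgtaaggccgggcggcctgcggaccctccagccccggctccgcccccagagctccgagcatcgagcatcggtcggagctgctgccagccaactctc
Ccn1: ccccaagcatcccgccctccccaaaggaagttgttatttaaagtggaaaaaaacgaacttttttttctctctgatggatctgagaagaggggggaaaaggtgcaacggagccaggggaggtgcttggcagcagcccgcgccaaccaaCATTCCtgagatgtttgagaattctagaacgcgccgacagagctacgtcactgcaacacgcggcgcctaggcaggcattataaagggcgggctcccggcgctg

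GGAATG on either strand occurred in 12.6% of 32851 promoter windows of this length, in 6 of 16 windows of 14 contractile genes and in 7 of 12 windows of 11 YAP-TEAD target genes. The contractile genes with it were *Acta2*, *Cald1*, *Flna*, *Lmod1*, *Mylk* and *Tpm1*. A CArG box, searched as CC, then 6 letters that are each A or T, then GG, with no letter allowed to differ, occurred in 1.47% of all windows, in 2 of 16 windows of contractile genes (*Cnn2* and *Myl9*) and in 0 of 12 windows of YAP-TEAD target genes. When 1 letter was allowed to differ, a choice made after seeing the data, the shares were 18.6% of all windows, 7 of 16 and 0 of 12. The *Acta2* window then held 2 such runs and no exact box. A CArG box ends in letters with which GGAATG begins, so that the motifs can overlap, and overlaps were not removed. A match is a run of letters only, and binding was not measured.

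Collagen genes had more counts in lungL. Of 14 members, 10 were considered, of which 6 were higher than in lungH and 8 higher than in lymphH, and none were lower. Of these 10, 5 reached the level through lungL alone against lungH and 7 against lymphH. The list summed to 56.2 counts per 10000 in lungL, 11.2 in lungH and 8.13 in lymphH. *Col1a2*, the partner chain of *Col1a1* in collagen I, had 14.7 (95% interval 14.2 to 15.2) in lungL, 0 counts in lungH and 1 count in lymphH, which is at least 811-fold above lungH. *Col5a2*, a chain of collagen V, had 7.58 in lungL and 0 counts in both other libraries. *Col6a3*, a chain of collagen VI, had 7.65 in lungL against 0 and 5 counts. *Col12a1* differed from these, with 3.69 in lungL and 2.85 in lungH but 1 count in lymphH. *Col4a1*, of the basement membrane, was at 6.7, 1.66 and 3.26. The collagen I, V and VI chains named here thus had few or no counts outside lungL, so that their direction was built in. Of the collagens that reached the level in the other library, 1 of 5 was higher than in lungH and 1 of 3 higher than in lymphH. *Col12a1* was found in both lung lines and had 1 count in lymphH.

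In bulk, 8 of 13 collagen genes tested rose against lung CD44high and 7 rose and 1 fell against LN CD44high. *Col1a1* had 83.3 and 257 TPM in lung CD44low, 0.08 and 0.02 TPM in lung CD44high and 1.98 and 0.37 TPM in LN CD44high. The 2 lung CD44low libraries differed from each other but both lay far above the other 4, and *Col1a1* rose by 7.13 ± 0.54 against lung CD44high (limma, adjusted p = 5.42e-06) and by 6.19 ± 0.54 against LN CD44high (limma, adjusted p = 1.19e-05). *Col3a1* had 18.7 and 59 TPM in lung CD44low and 1.08 and 0.2 TPM in lung CD44high. The gene that fell against LN CD44high was *Col18a1*, named here after its values were seen, with 2.54 and 3.55 TPM in lung CD44low and 50.4 and 64.1 TPM in LN CD44high (limma, adjusted p = 0.00017).

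Matrix glycoproteins and proteoglycans were higher in lungL, above all against lymphH. Of 22 members, 13 were considered, 12 higher than in lungH and 13 higher than in lymphH, but 8 and 10 reached the level through lungL alone. The list summed to 193 counts per 10000 in lungL, 63.6 in lungH and 14.9 in lymphH. *Fn1*, fibronectin, had 55.3 in lungL, 40.4 in lungH and 5.29 in lymphH, and was the member under 2-fold against lungH. *Thbs1*, the adhesive glycoprotein thrombospondin 1, had 49.5, 9.77 and 5.59. *Fstl1*, a secreted follistatin-like protein, had 9.38 in lungL and 0 counts in the other 2. *Fbln2*, a fibulin of elastic fibers, had 8.39 in lungL, 2.69 in lungH and 0 counts in lymphH. *Sparc*, which binds collagen, was 2.04-fold above lungH and 4.29-fold above lymphH. *Fn1* and *Fbln2* were thus present in both lung lines, and *Fstl1* was found in lungL alone among these libraries.

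In bulk, 16 of 20 members tested rose against lung CD44high and 17 of 20 against LN CD44high. *Bgn* had 7905 and 9601 TPM in lung CD44low, 1.71 and 0.65 TPM in lung CD44high, 8.26 and 2.96 TPM in LN CD44high and 0 TPM in both MFP libraries. *Bgn* rose by 12.01 ± 0.48 against lung CD44high (limma, adjusted p = 5.53e-08) and by 10.49 ± 0.48 against LN CD44high (limma, adjusted p = 1.22e-07). *Mgp* had 8436 and 8004 TPM in lung CD44low, 63.8 and 15.1 TPM in lung CD44high and 628 and 222 TPM in LN CD44high. *Mgp* was thus also present in the LN CD44high libraries, and it rose by 7.99 ± 0.97 against lung CD44high (limma, adjusted p = 0.000176). *Fn1* had 2012 and 4136 TPM in lung CD44low and 3669 and 956 TPM in lung CD44high, which overlapped, and rose only against LN CD44high, by 3.82 ± 0.86 (limma, adjusted p = 0.00496).

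Enzymes that crosslink and remodel the matrix divided into higher and lower members. Of 18 members, 11 were considered, with 7 higher and 1 lower than in lungH, and 7 higher and 2 lower than in lymphH. In each comparison 5 of the 7 reached the level through lungL alone. *Lox*, the lysyl oxidase that crosslinks collagen and elastin, had 3.73 in lungL, 0.0242 in lungH and 0 counts in lymphH. *Mmp2*, a gelatinase, had 2.69 in lungL and 1 count in each of the others. *Timp3*, an inhibitor of metalloproteinases, had 12.4, 3.01 and 2.22. *Timp2*, another such inhibitor, was lower than in lymphH, with 12.5 in lungL and 34.3 in lymphH. *Htra1*, a secreted serine protease, was the member lower than in lungH, at 0.437 against 8.15. In bulk, *Lox* had 715 and 984 TPM in lung CD44low, 1.95 and 0.64 TPM in lung CD44high and 0 TPM in both LN CD44high libraries, and *Htra1* had 75 and 50.6 TPM in lung CD44low, 2657 and 3169.7 TPM in lung CD44high and 119 and 124 TPM in LN CD44high. Of 18 tested in bulk, 12 rose and 1 fell against lung CD44high, and 13 rose and none fell against LN CD44high. *Htra1* was the gene that fell, by -5.54 ± 0.42 on the log2 scale (limma, adjusted p = 5.54e-06). *Timp2* had the opposite direction in bulk, with 1116 and 1291 TPM in lung CD44low and 225 and 142 TPM in LN CD44high, and rose by 2.74 ± 0.74 (limma, adjusted p = 0.0122, and 0.0321 to 0.0743 with 1 library left out).

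YAP-TEAD target genes summed to 58.6 counts per 10000 in lungL, 21 in lungH and 13.5 in lymphH. Of 13 members, 8 were considered, with 3 higher than in lungH and 7 higher than in lymphH, and none lower. All 3 and 6 of the 7 reached the level through lungL alone, and of the members that reached it in the other library, 0 of 5 were higher than in lungH and 1 of 2 higher than in lymphH. Beside *Ccn2*, *F3*, tissue factor, had 7.78 in lungL, 0.266 in lungH and 0.467 in lymphH. *Ccn1*, a matrix protein of the same family as *Ccn2*, had 10.3, 5.62 and 4.43, and *Axl*, a receptor tyrosine kinase, had 4.52, 6.66 and 3.91. *Ccn2* thus differed far more between the lung lines than *Ccn1* did. *Ankrd1*, a muscle ankyrin repeat protein that is a standard YAP target, had 0.288 in lungL and 0.625 in lymphH, and was listed at 0 TPM in both bulk lung CD44low libraries against 4.61 and 8.59 TPM in lung CD44high and 41.4 and 36.6 TPM in LN CD44high. *Ccn2* had 744 and 784 TPM in lung CD44low and 138 and 158 TPM in lung CD44high, and rose by 2.37 ± 0.74 (limma, adjusted p = 0.0352). With any 1 of the 4 libraries left out, the adjusted p of *Ccn2* was 0.102 to 0.139 in limma, so that *Ccn2* no longer passed. Against LN CD44high, with 36.1 and 50.4 TPM, *Ccn2* rose by 4.13 ± 0.74 (limma, adjusted p = 0.00139). In bulk, 3 of 13 target genes rose and 1 fell against lung CD44high, and 8 rose and 1 fell against LN CD44high. The gene that fell in both was *Ankrd1* (limma, adjusted p = 0.00699 and 0.000103), with an adjusted p of 0.0211 to 0.0533 against lung CD44high when 1 library was left out.

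Genes of the transforming growth factor beta pathway were mixed. Of 23 members, 15 were considered against lungH, 4 higher and 1 lower, and 14 against lymphH, 9 higher and 2 lower. Of the members that reached the level in the other library, 0 of 11 were higher than in lungH and 3 of 7 higher than in lymphH. The other higher members reached it through lungL alone. The ligand *Tgfb3* had 1.76 in lungL, 0.526 in lungH and 0.309 in lymphH. *Ltbp1*, which holds the latent ligand in the matrix, had 2.99, 0.514 and 0.929. Of response genes, *Tgfb1i1*, the focal adhesion protein Hic-5, had 1.91 in lungL against 4 and 3 counts. The inhibitor *Smad7* was lower than in lungH, at 2.27 against 4.7, and *Pmepa1*, another inhibitor, was lower than in lymphH, at 7.64 against 16. In bulk, 4 of 23 rose and 1 fell against lung CD44high, and 9 rose and none fell against LN CD44high.

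Secreted factors differed as well, in both directions in bulk. *Grem1*, an antagonist of bone morphogenetic proteins, had 21.6 (95% interval 21 to 22.2) in lungL, 0.103 in lungH and 0 counts in lymphH. *Cck*, the peptide hormone cholecystokinin, had 11.8 in lungL and 0 counts in the other 2. *Nrn1*, the neurite growth factor neuritin, had 6.34 in lungL against 2 and 0 counts. Each of the 3 was thus nearly confined to lungL among these libraries. *Igfbp4*, which binds insulin-like growth factors, had 13.3, 1.27 and 0.126, and the list of 10 insulin-like growth factor genes summed to 22.9, 3.98 and 1.89. Of 3 members of that list considered, 2 were higher than in lungH and 3 higher than in lymphH, of which 1 and 3 reached the level through lungL alone. Of 15 cytokines and chemokines, 4 were considered, with 2 higher than in lungH and 4 higher than in lymphH, and none lower, of which 1 and 2 reached the level through lungL alone. In bulk, 7 of 14 rose and none fell against lung CD44high, but 4 rose and 7 fell against LN CD44high. *Csf1*, the macrophage growth factor, had 9.28, 1.87 and 1.14, and *Cxcl12*, a chemokine of stromal cells, had 4.7, 3.15 and 0 counts in lymphH. *Spp1*, osteopontin, was alike in the lung lines, at 24.9 and 29.3, and lower in lymphH, at 5.33.

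In bulk, *Grem1* had 47.6 and 67.5 TPM in lung CD44low and was listed at 0 in the lung CD44high and LN CD44high libraries. *Nrn1* had 88.3 and 85.8 TPM in lung CD44low. *Igfbp4* had 2317 and 1519.7 TPM in lung CD44low, 206 and 71.4 TPM in lung CD44high and 3.12 and 2.46 TPM in LN CD44high, and rose by 3.94 ± 0.76 against lung CD44high (limma, adjusted p = 0.00339). *Cxcl12* had 1687 and 2522 TPM, 30.0 and 36.2 TPM and 0 TPM in the same order, and rose by 5.92 ± 0.39 against lung CD44high (limma, adjusted p = 1.85e-06). *Csf1* rose by 2.80 ± 0.64 against lung CD44high (limma, adjusted p = 0.00856), with an adjusted p of 0.0264 to 0.0697 when 1 library was left out. *Spp1* went the other way against LN CD44high in bulk, at 973 and 1415 TPM against 5930.1 and 4641 TPM, and fell by 2.16 ± 0.78 (limma, adjusted p = 0.0427, and 0.0923 to 0.169 with any 1 library left out).

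Mesenchymal genes did not move as 1 group. Of 16 members, 7 were considered, with 4 higher and 1 lower than in lungH and 6 higher and 1 lower than in lymphH, of which 3 of the 4 and 5 of the 6 reached the level through lungL alone. *Vim*, the intermediate filament vimentin, had 21.1 in lungL, 34.6 in lungH and 6.27 in lymphH, so that lungH was the highest. *Cdh2*, N-cadherin, was the member lower in lungL in both, at 1.15 against 3.04 and 3.63. *Prrx1*, a transcription factor of mesenchyme, had 3.99, 0.496 and 0.919, and *S100a4*, a calcium-binding protein of motile cells, had 7.64, 2.34 and 0.69. In bulk, *Cdh2* had 4.11 and 5.85 TPM in lung CD44low, 73.3 and 83.5 TPM in lung CD44high and 56.3 and 69.4 TPM in LN CD44high, and fell by 3.74 ± 0.56 against lung CD44high (limma, adjusted p = 0.000705).

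Regulators of position were low in the single cells but separated the bulk groups. The 21 Hox genes summed to 2.10 counts per 10000 in lungL, 0.284 in lungH and 0.363 in lymphH, and none reached the level needed. In bulk, 9 of 14 tested rose against lung CD44high and 8 against LN CD44high, and of 13 transcription factors of lung mesenchyme, 10 were tested and 7 rose in each comparison. In the single cells the same 13 genes summed to 4.29 counts per 10000 in lungL, 4.03 in lungH and 2.45 in lymphH. There, 2 were considered, none were higher in lungL, and *Foxc1* was lower than in lungH, at 0.781 against 1.72. *Foxf1*, a regulator of lung mesenchyme, had 94.8 and 98.5 TPM in lung CD44low, 1.08 and 0.19 TPM in lung CD44high and 1.23 and 1.01 TPM in LN CD44high. *Foxf1* rose by 5.96 ± 0.44 against lung CD44high (limma, adjusted p = 5e-06), and its single-cell level was 0.67 per 10000. *Hoxa5*, which patterns the lung, had 16.7 and 18.9 TPM in lung CD44low, 0.21 and 0.24 TPM in lung CD44high and 1.61 and 1.65 TPM in LN CD44high.

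Epithelial markers were low. Of 18 members, 9 had no count in lungL, 11 had none in lungH and 3 had none in lymphH. The list summed to 6.08 counts per 10000 in lungL, 11.1 in lungH and 21.8 in lymphH. Against lungH, 2 of 3 considered were lower, and against lymphH 6 of 7, with none higher, but the level was reached through the other library alone by 2 and 6 members, so that their direction was built in. *Krt8*, the keratin of simple epithelia, had 0.13 in lungL, 1.72 in lungH and 2.8 in lymphH. *Cdh1*, E-cadherin, had 0 counts in lungL and in lungH, and 174 counts in lymphH. *Cd24a*, a glycoprotein of epithelial cells, had 4.25, 6.51 and 8.61, and gave most of the lungL sum. In bulk, 4 of 17 fell against lung CD44high and 14 of 17 against LN CD44high. *Krt8* was listed at 0 TPM in both lung CD44low libraries, with 5.26 and 27.8 TPM in lung CD44high and 1624 and 1505 TPM in LN CD44high. The low epithelial level was thus shared with lungH for *Epcam* and *Cdh1*, and differed from it for *Krt8*. Of mammary lists, the 9 myoepithelial and basal markers summed to 0.0651 counts per 10000 in lungL, 0.103 in lungH and 0.185 in lymphH. The 12 mammary luminal and milk genes summed to 0.442, 5.61 and 0.237, and 83.2% of their lungL counts lay in cluster 2, described below.

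Markers of other cell types that a lung could hold were near 0, except for those of fibroblasts and pericytes. The 8 lung epithelial markers had no count, among them *Sftpc* and *Scgb1a1*. Lymphocyte markers summed to 0.00465, endothelial markers to 0.0186 and mesothelial markers to 0.223 counts per 10000. Macrophage markers summed to 0.539 in lungL, 0.792 in lungH and 0.467 in lymphH, with 6 of 10 members at 0 in each. The 10 fibroblast markers, 3 of which are collagen genes counted above, summed to 22, 6.04 and 0.156, and 4 were considered against lungH. The 3 that were higher reached the level through lungL alone, and the 1 that reached it in lungH was lower. In bulk, 6 of 8 rose against lung CD44high and all 8 against LN CD44high. *Cd34*, a sialomucin of fibroblasts and progenitors, had 1.17 in lungL and 0 counts in the other 2, and *Pdgfra*, the alpha receptor for platelet-derived growth factor, had 0.637, 0.181 and 0.0667. That member was *Ly6a*, at 0.432 against 5.81. The 8 pericyte markers summed to 2.4, 0.163 and 0.536. *Pdgfrb* was the 1 considered, at 1.48, 0.0665 and 0.0371, and 2 members were at 0 in lungL. What part such cells had in these levels was not tested.

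Of cell cycle genes, G2/M genes had a lower sum in lungL than in both other lines, and most S phase genes were lower than in lungH only. Of 16 G2/M genes, 10 were considered against lungH and 9 of them were lower, and 5 of 7 were lower than in lymphH, with none higher. Against lymphH the count was 3 of 7 with cells over 250 genes, 3 of 7 with ratios divided by the median ratio and 2 of 6 with the mean of per-cell levels. The level was reached through the other library alone by 8 of the 10 genes against lungH and 5 of the 7 against lymphH, so that their direction was built in. Of the 2 that reached it in lungL, 2 were lower than in lungH and 1 lower than in lymphH. The list summed to 7.74 counts per 10000 in lungL, 26.1 in lungH and 22.8 in lymphH. *Mki67*, the proliferation antigen, had 0.246 in lungL, 2.06 in lungH and 1.01 in lymphH. *Top2a*, the topoisomerase of dividing cells, had 1.41, 3.65 and 1.63. Of S phase genes, 10 of 13 considered were lower than in lungH, but 1 of 11 was lower than in lymphH. Of the 13, 4 reached the level through lungH alone, and 6 of the other 9 were lower. *Pcna*, the replication clamp, had 3.14, 9.5 and 4.03. As described below, 1 group of lungL cells held 59.2% of the G2/M counts. Without its 47 cells, a comparison chosen after seeing the data, 10 of 10 genes were lower than in lungH and 6 of 7 lower than in lymphH. Leaving out the cells that held most of these counts lowers the lungL level by construction, so that this comparison is no test.

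In bulk, cell cycle genes were lower against LN CD44high and not against lung CD44high. All 16 G2/M genes and all 14 S phase genes fell against LN CD44high, and 0 of 16 and 0 of 14 passed the test against lung CD44high (limma), where the median log2 fold changes were -0.27 and -0.25. *Top2a* had 0.69 and 2.21 TPM in lung CD44low, 0.68 and 8.37 TPM in lung CD44high and 99.2 and 99 TPM in LN CD44high, and fell by 5.43 ± 0.99 against LN CD44high (limma, adjusted p = 0.00156). The 2 lung CD44high libraries were unlike for *Top2a*, and both lung CD44low libraries lay between them. *Top2a* was thus far lower in bulk lung CD44high than in LN CD44high, whereas it was higher in lungH than in lymphH. *Mki67* no longer passed against LN CD44high with any 1 library left out (limma, adjusted p of 0.0595 to 0.0712). *Ccnd2*, cyclin D2, was higher in lungL, at 3.32 against 0.194 and 0.0297, and *Ccnd1*, cyclin D1, was lower than in lungH, at 3.73 against 8.09 and 7.26 in lymphH. Bulk *Ccnd2* was 408 and 474 TPM in lung CD44low, 13.3 and 13.1 TPM in lung CD44high and 1.77 and 0.58 TPM in LN CD44high, and rose by 4.96 ± 0.66 against lung CD44high (limma, adjusted p = 0.000343).

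The genes with the smallest ratios to lungH were of several kinds. *Aldh3a1*, an aldehyde dehydrogenase, had 0.316 in lungL against 14.6 in lungH, a 46.3-fold difference, and 0.0445 in lymphH. *Wnt4*, a secreted Wnt ligand, had 0.079 against 5.12. *Ctla2a*, an inhibitor of cysteine proteases, had 1.21 against 17.5, and *Clu*, the secreted chaperone clusterin, had 0.377 against 5.06. *Gata3*, the transcription factor of luminal mammary cells, had 0.418 against 5.4, and *Ezr*, the membrane linker ezrin, 1.54 against 7.27. In lymphH these genes had 0.0148 (*Wnt4*) to 2.33 (*Ezr*), so that among the single-cell libraries they set lungH apart rather than lungL. *Ctla2a* and *Wnt4* did not repeat this in bulk, and their values are given at the end. The rest of the 15 were *Htra1*, *Ly6a*, *Sptan1*, *Gclm*, *Prss23*, *Polr2l*, *Atp5h*, *Jpt1* and *Cadm1*. In bulk, 14 were tested against lung CD44high and 6 fell, among them *Gata3*, which had 2.14 and 2 TPM in lung CD44low against 187 and 305 TPM and fell by 6.29 ± 0.41 (limma, adjusted p = 1.65e-06). *Gclm*, a subunit of the enzyme that starts glutathione synthesis, rose there, a call that was lost with any 1 library left out (limma, adjusted p of 0.061 to 0.0792), and is given with other unlike values at the end.

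The genes with the smallest ratios to lymphH included transcripts that were abundant in lymphH alone. *Noct*, a circadian phosphatase, had 1.48 in lungL, 2.83 in lungH and 36.8 in lymphH, and *Sirt5*, a mitochondrial lysine deacylase, had 0.195, 0.212 and 13. *Slc38a6*, of an amino acid transporter family, had 0.781, 1.06 and 26. *Birc5*, the mitotic protein survivin, had 0.642 against 9.09, and *Fabp5*, a fatty acid-binding protein, 1.78 against 11.8. *Idi1* and *Cyp51*, of cholesterol synthesis, had 0.418 against 6.25 and 0.446 against 5.07. Of 13 of the 15 tested in bulk, 6 fell against LN CD44high: *Birc5* went from 3601 and 3645 TPM in LN CD44high to 1.67 and 3.23 TPM in lung CD44low and fell by 10.07 ± 0.94 (limma, adjusted p = 1.96e-05). *Tmsb4x*, thymosin beta 4, which binds actin monomers, was among the largest in the other direction, at 21.1 in lungL, 4.35 in lungH and 0.0297 in lymphH.

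Stem cell, dormancy and metabolic lists were mixed. Of 11 stem cell and sorting markers considered against lungH, 4 were lower and none higher, and of 10 against lymphH, 3 were lower and 1 higher. The 4 lower than in lungH reached the level through lungH alone, and the 1 higher than in lymphH through lungL alone. Against lymphH, 3 reached it through lymphH alone. In bulk, 4 of 18 rose and 2 fell against lung CD44high, and 6 rose and 5 fell against LN CD44high. The dormancy list came from a display of these cell lines, and may therefore not be independent evidence of a direction. Of its 10 genes, 9 were considered, with 3 higher and 2 lower than in lungH and 4 higher and 1 lower than in lymphH. Of the members that reached the level in the other library, 1 of 6 was higher than in lungH and 2 of 5 higher than in lymphH. Of the 8 that reached it in lungL, 1 was lower than in lungH and 0 lower than in lymphH. The direction of the rest was built in. In bulk, 3 rose against lung CD44high and 6 against LN CD44high, and none fell. *Ddr2*, a collagen receptor, had 1.4 in lungL, 1 count in lungH and 0.712 per 10000 in lymphH, and *Ctsd*, the lysosomal protease cathepsin D, had 16.1, 37.1 and 15.5. Of 8 glycolysis and hypoxia genes considered, 5 were higher than in lungH and 2 higher than in lymphH, of which 2 and 2 reached the level through lungL alone. In bulk, 2 of 13 rose and none fell against lung CD44high, and 2 rose and 1 fell against LN CD44high. *Ldha*, lactate dehydrogenase A, had 16.3, 7.2 and 18.2, and *Slc2a1*, the glucose transporter GLUT1, had 2.92, 0.405 and 0.497. The whole list summed to 86.1, 43.9 and 91.4, so that the sum of lungL was nearer to that of lymphH than to that of lungH. Of 12 oxidative stress genes considered against lungH, 2 were higher and 3 lower, and of 8 against lymphH, 3 were higher and none lower. Of the members that reached the level in the other library, 0 of 10 were higher than in lungH and 1 of 6 higher than in lymphH. Of the 7 that reached it in lungL, 1 was lower than in lungH. In bulk, 7 of 14 rose and none fell in each of the 2 comparisons. *Gpx3*, a secreted glutathione peroxidase, had 1.75 in lungL against 0 counts in lungH and 1 in lymphH, and *Nqo1*, a quinone reductase, had 1.05 against 1 and 0 counts.

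**Figure D3:**
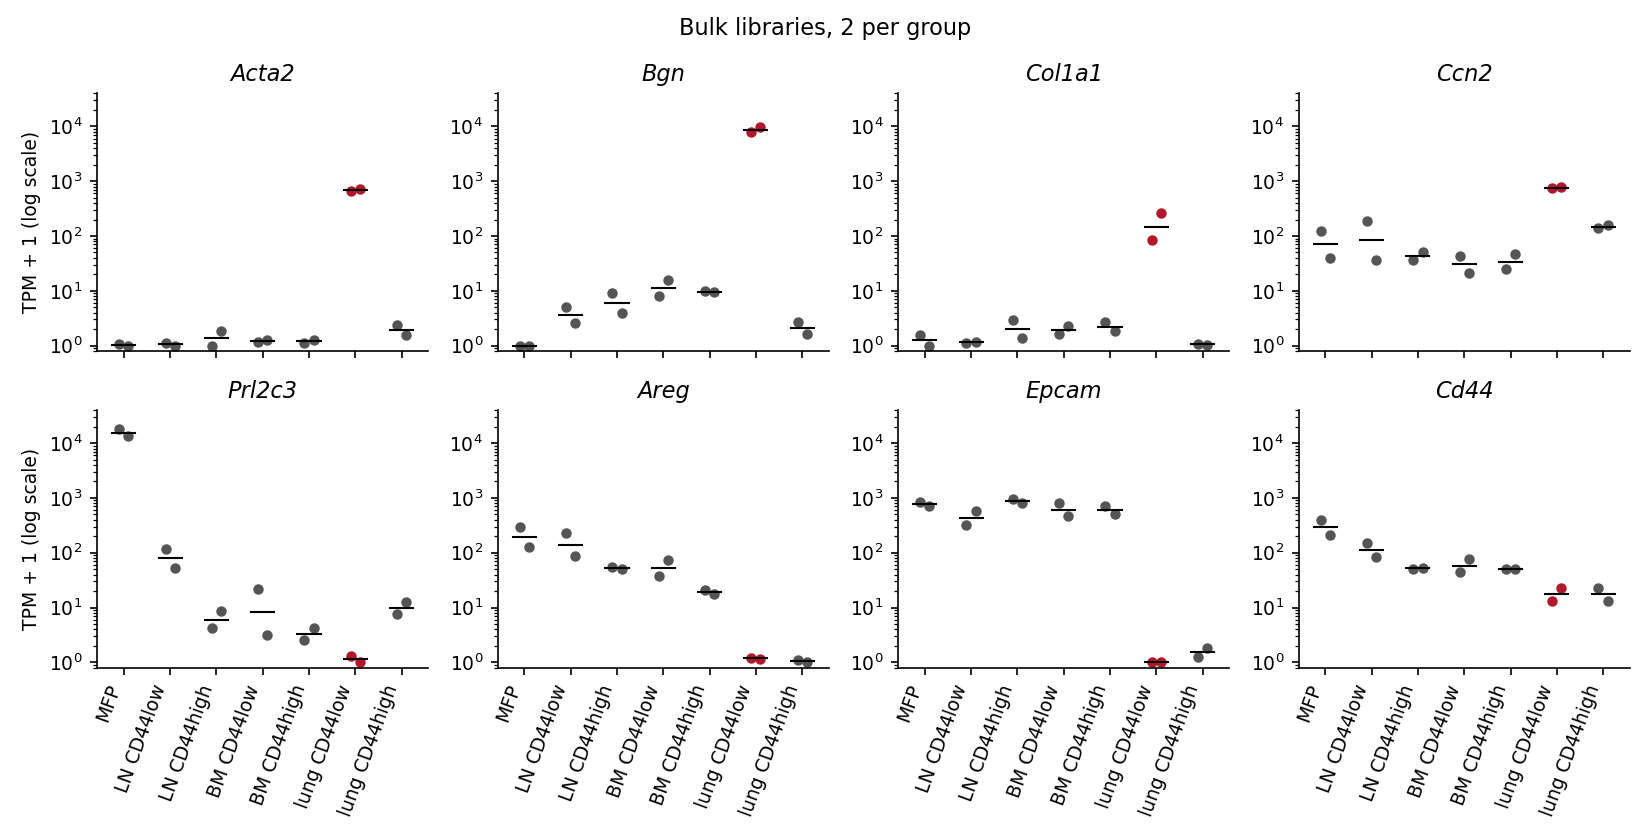
TPM + 1 (log axis) of 8 genes in the 7 bulk groups, with a point for each of 2 libraries, a line at their mean on the log scale and lung CD44low in red. *Acta2*, *Bgn* and *Col1a1* are highest in lung CD44low, whereas *Prl2c3* is highest in MFP and *Epcam* is listed at 0 in lung CD44low.

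The lungL cells fell into 4 clusters (Leiden, resolution 0.5), which are described by number and leading genes. Since the clusters were made from these genes, the differences between them are no test. Cluster 1 held 111 cells (47.2%, 95% interval 40.7% to 53.8%), cluster 2 47 cells (20%, 15.1% to 25.7%), cluster 3 44 cells (18.7%, 13.9% to 24.3%) and cluster 4 33 cells (14%, 9.87% to 19.2%). Their median counts per cell were 10801, 8473, 14055.5 and 2524, in that order. Doublets were called in 9 lungL cells, which were kept, 7 of cluster 1 and 2 of cluster 2.

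Cluster 1 was led by secreted and matrix genes. Its leading 10 were *Igfbp4*, *Grem1*, *Nbl1*, *Rnase4*, *Nrn1*, *Fbln5*, *Rspo3*, *Rtl8b*, *Mxra8* and *Lpar1*. *Igfbp4* had 21.5 counts per 10000 there against 0.282, 7.71 and 6.38 in clusters 2 to 4, and *Grem1* 32.2 against 2.87, 15.4 and 13.3. *Nbl1*, another antagonist of bone morphogenetic proteins, had 3.47 against 0.102, 1.97 and 0.281. *Fbln5*, a fibulin of elastic fibers, had 3.57 against 0.0769, 2.15 and 0.656. Contractile genes summed to 144 and G2/M genes to 2.66 per 10000 in cluster 1.

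Cluster 3 held the highest level of several contractile genes. It was led by *Actg2*, *Ccl2*, *Sap18b*, *Hspb1*, *Acta2*, *Mgp*, *Timp1*, *Abracl*, *Plpp1* and *Gstp1*. *Acta2* had 92.3 counts per 10000 in cluster 3 against 35.4 in cluster 1, and *Mgp* 52.1 against 21.3. *Actg2*, smooth muscle gamma-actin, had 8.3 against 0.746 in cluster 1 and 0 counts in cluster 2. *Ccl2*, a chemokine for monocytes, had 3.59 against 0.482, and *Hspb1*, a small heat shock protein, 3.28 against 0.628. The contractile sum was 233 per 10000 in cluster 3, with a median cell of 170 and a range of 27.4 to 591. In cluster 4 the sum was 196 and the median cell, 204, was higher than in cluster 3. Cluster 3 cells also had the highest median counts, and the part of depth in these differences was not tested.

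Cluster 4 was shallow. Its median of 2524 counts lay below 3233, the limit set by the library's median under which no cluster was named. Its mitochondrial share had a median of 2.12% against 0.124% in cluster 1, 1.16% in cluster 2 and 0.113% in cluster 3. It was led by *Gm26917*, *Malat1*, *Col1a1*, *mt-Co3*, *mt-Co2*, *mt-Co1*, *Mrc2*, *Col5a2*, *Vmp1* and *Tnc*. *Malat1*, a nuclear long noncoding RNA, had 18.2 counts per 10000 there against 2.27 in cluster 1. *Col1a1* had 26.9 in cluster 4, 4.22 in cluster 1, 0.231 in cluster 2 and 3.47 in cluster 3, and the collagen list summed to 223 against 58.8, 13.8 and 48.9. The collagen level of cluster 4 was thus the highest of the 4 clusters. What part low depth or RNA quality had in the profile of cluster 4 was not tested.

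**Figure D4:**
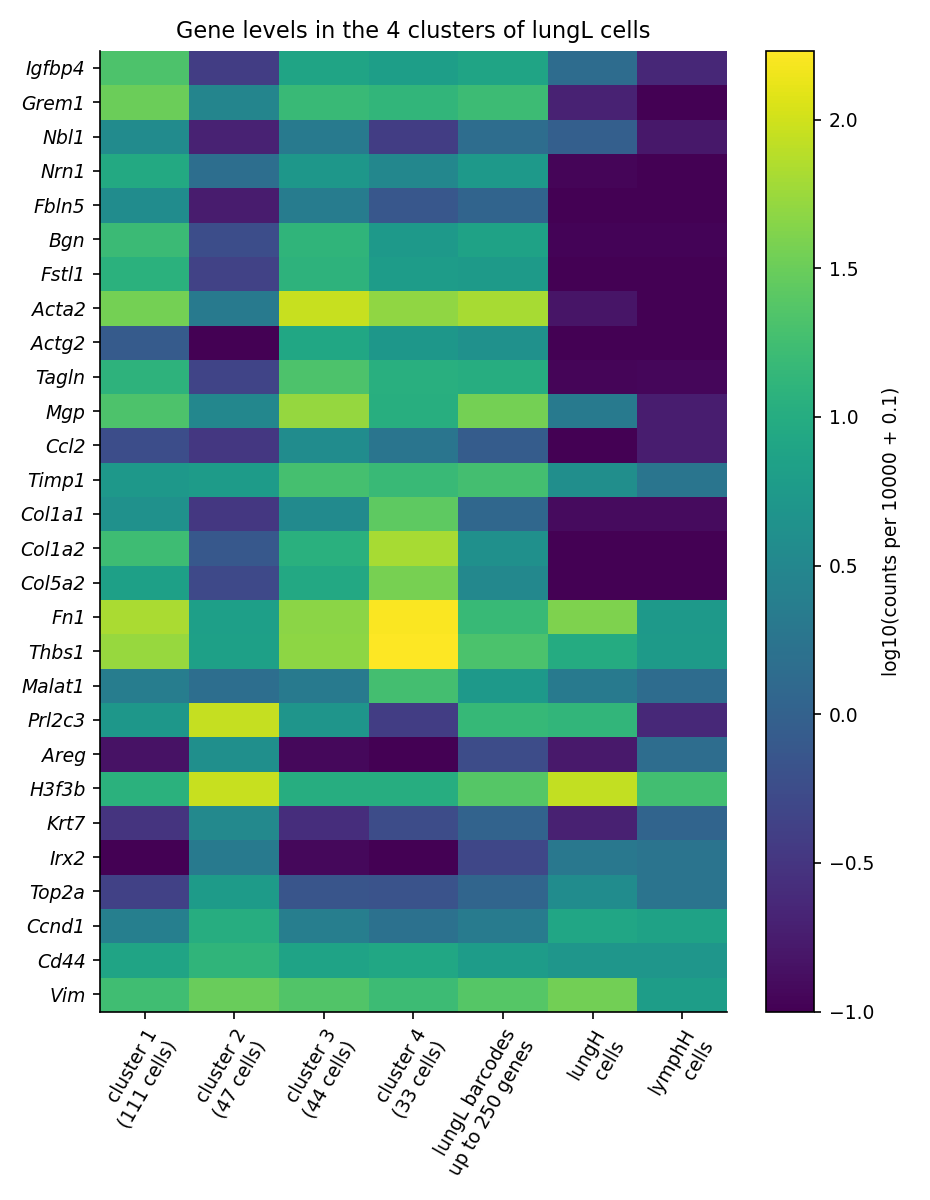
Counts per 10000 (log10 after adding 0.1, color scale) of 28 genes (rows) in the 4 lungL clusters, the lungL barcodes with at most 250 genes, lungH and lymphH (columns). Contractile and matrix genes are high in clusters 1, 3 and 4, and *Prl2c3*, *Areg*, *H3f3b* and *Top2a* are high in cluster 2.

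Cluster 2 departed from the profile of the line. It was led by *Prl2c3*, *Gm38226*, *Areg*, *H3f3b*, *Top2a*, *Atp5j2*, *mt-Cytb*, *Krt7*, *Alyref* and *Irx2*. Its mitochondrial share had a median of 1.16%, above the 0.124% of cluster 1 and 0.113% of cluster 3, and what part RNA quality had in its profile was not tested. *Prl2c3*, a proliferin hormone gene with near-identical copies whose reads may be shared, had 87.4 counts per 10000 in cluster 2 against 5.08 in cluster 1, 4.76 in cluster 3 and 0.281 in cluster 4. *Areg*, the growth factor amphiregulin, had 3.92 against 0.0341 in the other 3 clusters, and *Krt7*, a keratin of simple epithelia, 3.18 against 0.21. *H3f3b*, which encodes histone H3.3, had 91.1 against 10.9, close to the 85 of lungH. *Irx2*, a homeobox factor, had 2.08 against 0.00568, where lungH had 1.89 and lymphH 1.63.

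The marker genes of the line were low in cluster 2. *Acta2* had 2.05 counts per 10000, *Col1a1* 0.231, *Bgn* 0.487, *Mgp* 3.05 and *Ccn2* 0.922, against 54.2, 5.36, 14.3, 30.3 and 30.7 in the other 3 clusters. The lungL barcodes with at most 250 genes, where RNA free of cells may be found, had 63.6, 1.12, 7.1, 35.7 and 15.1, so that cluster 2 lay below them for all 5. The cluster gave 18.1% of lungL counts but 2.39% of the contractile counts, 59.2% of the G2/M counts and 48.3% of the epithelial list's counts. Its G2/M sum was 25.3 per 10000, against 2.66 in cluster 1, 5.69 in cluster 3 and 6.75 in cluster 4, and lungH had 26.1. Per cell, the contractile sum had a median of 20.7 in cluster 2 and 118 in cluster 1, and *Prl2c3* had a median of 72.1 in cluster 2 and 0 in each other cluster. Of the 47 cells, 42 held a *Prl2c3* count, as did 40 of 111 cells of cluster 1.

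**Figure D5:**
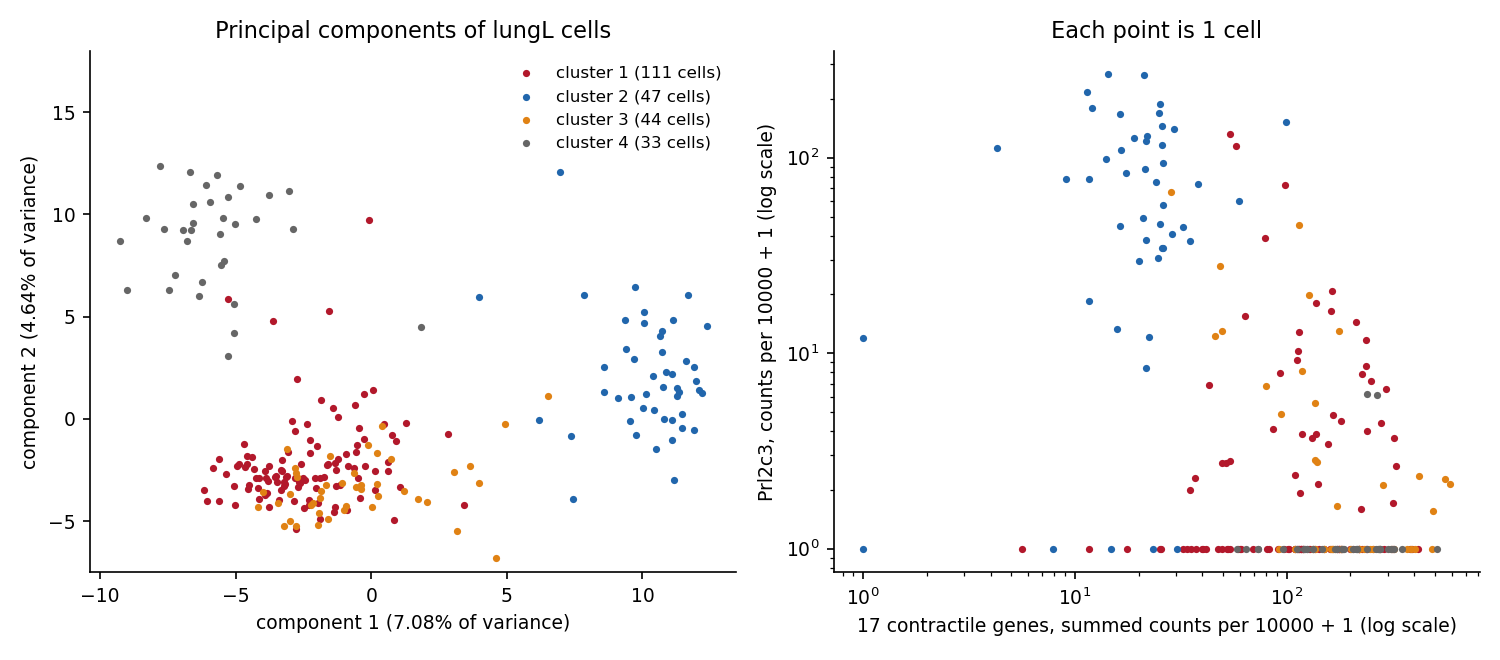
The 235 lungL cells on the first 2 principal components (7.08% and 4.64% of the variance), colored by cluster, and for each cell the summed contractile genes against *Prl2c3*, both in counts per 10000. Cells of cluster 2 lie apart, with a median contractile sum of 20.7 and a median *Prl2c3* level of 72.1.

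In the joint space of the 3 libraries, cells lay mostly among cells of their own library. Of the 15 nearest neighbors of each lungL cell, 97.5% on average were lungL cells, 1.28% were lungH and 1.25% lymphH. For cluster 2 cells the shares were 90.9%, 4.68% and 4.4%, and for cluster 1 cells 99.5%, 0.48% and 0%. The own-library share was 99.2% for lungH and 99.98% for lymphH, so that with 1 library a line this share reflects the separation of the libraries. *Epcam* and *Cdh1* had no count in cluster 2 either, and *Cd44* had 12.9 per 10000 there against 7.62 in the other clusters. Cluster 2 had the lowest own-library share of the 4 clusters.

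Set beside the bulk libraries, the lungL profile was most like lung CD44low. Over 2747 genes, the Spearman correlation of summed counts with TPM was 0.446 and 0.485 with the 2 lung CD44low libraries and 0.323 or lower with the 2 of lung CD44high. This is across genes, which are not independent, and the points share the differences between a 3′ kit and full-length reads. The measure did not always pick the own line. The lymphH profile had its highest values with BM CD44low replicate 2 (0.580) and LN CD44low replicate 1 (0.577), above LN CD44high (0.562 and 0.572). Clusters 1, 3 and 4 were also most like lung CD44low, at only 0.214 and 0.259 for cluster 4. Cluster 2 had its highest correlations with MFP, at 0.542 and 0.527, against 0.365 and 0.363 with lung CD44low and 0.397 and 0.405 with lung CD44high. LN CD44low replicate 1 (0.525) and BM CD44low replicate 2 (0.524) were nearly as high for cluster 2, and LN CD44high gave 0.498 and 0.503. Bulk values of 3 leading genes of cluster 2 are given as a description, since no contrast with MFP was tested. *Prl2c3* had 0.3 and 0 TPM in the lung CD44low libraries and 18129 and 13372 TPM in MFP. *Areg* had 0.21 and 0.17 TPM in lung CD44low and 297 and 127 TPM in MFP, and *Krt7* 0.69 and 0.25 TPM and 724 and 466 TPM. Of 9 leading genes of cluster 2 tested in bulk, none rose in lung CD44low and 2 fell against lung CD44high and 7 against LN CD44high. Of the leading genes of clusters 1, 3 and 4, 8 of 10, 7 of 9 and 4 of 10 rose against lung CD44high.

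The bulk libraries also bear on the genes that set lungL apart. Of the 15 genes with the largest ratio to lungH, 14 were tested and all 14 rose in lung CD44low against lung CD44high and against LN CD44high, where 8.8% and 14.2% of all genes rose. The gene not tested was *Cck*. Of the 15 largest against lymphH, 13 of 14 rose against LN CD44high, and *Prl2c3* fell (limma, adjusted p = 0.0287, and 0.0437 to 0.159 with 1 library left out). Whether the single cells came from the isolates that gave the bulk libraries is not given in the sources used here, so that the 2 kinds of data may not be independent.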

How the data were processed

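Cells were captured on a ddSeq instrument with the 3′ SureCell kit, and kallisto assigned the reads to mm10 transcripts per the study's methods. The deposited tables hold counts per gene and barcode, and whether unique molecular identifiers were collapsed is not given in the sources used here. The authors made the bulk TPM values with STAR and RSEM after a modified SMART-seq2 preparation, and TPM keeps no depth. Counts over kept cells were summed per library and scaled to 10000. Cells were clustered with scanpy 1.11.5 on 2000 variable genes, 20 components and 15 neighbors, and doublets were called with scrublet and kept. Bulk genes with at least 1 TPM in 2 of 14 libraries were fitted over all 7 groups with limma 3.58.1 (R 4.3.3) and trend-adjusted variances, after a test on simulated data. Fold changes on the log2(TPM + 1) scale understate those of low genes, and p-values measure the spread between 2 isolates a group. An exact permutation test of 2 against 2 cannot go below 0.333.

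Named genes were the 5 markers, the 15 genes with most counts, the 15 largest and 15 smallest ratios in each comparison (0.1 added to both levels, at least 5 per 10000 in either library), the 10 leading genes of each cluster, up to 6 members per list, and list members whose promoters held a motif. The members and the 35 lists were chosen with earlier results of these data known. Alternatives changed the gene and fold limits, cell filters, thinning, clustering, pseudocount, scaling and libraries.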

Additional observations from a re-analysis of the deposited data

How the results depend on the processing

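Counts of genes followed the level and fold required. Against lungH, 639 genes were higher and 602 lower at 0.5 per 10000, 62 and 51 at 5 per 10000, and 143 and 68 at 4-fold. Against lymphH, the counts were 771 and 553, 79 and 78, and 190 and 118. Shares of lungL cells followed depth: thinned to 500 counts and unthinned, they were 21.7% and 68.9% for *Col1a1*, 58.7% and 88.5% for *Acta2*, 38.3% and 74.9% for *Bgn*, 40.9% and 80.9% for *Mgp*, and 53.6% and 84.7% for *Ccn2*. With cells of over 250 genes, the cluster with most *Prl2c3* held 12.9% of lungL cells, and 4 clusters were found there as at resolution 0.3, with 5 at 0.8. Chosen after seeing the data, leaving out the 47 cells of cluster 2 gave 458 higher and 405 lower genes against lungH and 513 and 461 against lymphH. S phase genes lower than in lymphH went from 1 of 11 to 5 of 10, and the log2 ratio of *Slpi* to lungH became -0.0035, from 2.13-fold. Cluster 2 held 41.2% of the S phase counts of lungL, so that a fall of the S phase level was built in. Requiring 3000 counts per cell, also chosen after seeing the data, gave 371 and 318 genes against lungH and 428 and 338 against lymphH.

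In bulk, a pseudocount of 0.1 gave 755 lower genes against lung CD44high and 1605 against LN CD44high. Scaling TPM by median ratios gave 1722 higher and 1214 lower genes against LN CD44high. With 1 library left out, 761 (without lung CD44low replicate 2) to 1187 genes rose and 301 to 436 fell against lung CD44high, and 1566 to 2111 rose and 836 to 933 fell against LN CD44high. The log2 difference of *Cd44* to lung CD44high ran from -0.41 to 0.40 with 1 library left out, and turned positive, at 0.39 and 0.40, without replicate 1 of lung CD44low or of lung CD44high. *Gclm* no longer passed with any 1 library left out, with limma's adjusted p at 0.061 to 0.0792 against lung CD44high, and *Krt8* did not pass there with those 2 groups alone (limma, adjusted p = 0.0653). The causes were not tested. The replicate block gave 1319 higher and 382 lower genes against lung CD44high and 2159 and 940 against LN CD44high. The deviations of the replicate 1 libraries from their group means correlated at -0.194 (lung CD44low and lung CD44high) and 0.109 (lung CD44low and LN CD44high). With 2 libraries a group, replicate 2 mirrors replicate 1, so that each is 1 value and cannot decide on a pairing. The labels do not state a pairing, and whether same-numbered libraries share a mouse is not known here.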

Other observations

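Genes outside the lists above also differed. Of 8 acute phase, antimicrobial and proliferin genes, 3 were considered, and 2 were higher than in lungH and 3 higher than in lymphH, of which 1 and 3 reached the level needed through lungL alone. In bulk, 3 of 8 rose and 1 fell against lung CD44high, and 1 rose and 4 fell against LN CD44high. Cluster 2 held 63.0% of the lungL counts of this list. *Slpi*, a secreted inhibitor of leukocyte proteases, had 1.66 counts per 10000 in lungL, 0.78 in lungH and 0.166 in lymphH, and cluster 2 held 5.66 against 0.778 in the other lungL cells. Of 8 lysosomal proteases and cystatins considered, 1 was higher and 2 lower than in lungH, and 2 were higher and 1 lower than in lymphH. The 1 higher than in lungH reached the level through lungL alone, and 1 of the 2 lower through lungH alone. The 1 lower than in lymphH reached it through lymphH alone. Of 4 genes of antigen presentation and interferon response considered, none were higher or lower than in lungH. Against lymphH, 1 was higher, which reached the level through lungL alone, and 1 was lower. *B2m*, the light chain of the class I complex, had 10.6, 16.8 and 13.9. Of 15 retinoid genes, none reached the level needed in the single cells, and 5 of 12 tested in bulk rose against lung CD44high.

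Several genes had unlike levels in the single-cell and bulk files, which are given as values. *Cck* had 11.8 counts per 10000 in lungL but 0.09 and 0.25 TPM in bulk lung CD44low, and *Actg2* 2.77 but 0.39 and 0.92 TPM. *Aldh1a1*, an enzyme of retinoic acid synthesis, went the other way, at 0.112 counts per 10000 and 610.2 and 601 TPM. *Ctla2a* was lower in lungL than in lungH, at 1.21 against 17.5, and had 1497 and 1599 TPM in lung CD44low against 507 and 443 TPM in lung CD44high. *Gclm* was likewise lower in lungL, at 1.1 against 5.86, and rose in bulk by 3.52 ± 0.91 against lung CD44high (limma, adjusted p = 0.0159, and 0.061 to 0.0792 with any 1 library left out, so that the call was lost). *Wnt4* had 5.12 counts per 10000 in lungH and 0.09 and 0.29 TPM in lung CD44high. The olfactory receptor gene *Olfr907* was among the 15 genes with most counts in lungL, at 49.3 per 10000, with 42.7 in lungH and 38.2 in lymphH, and was listed at 0 TPM in the lung CD44low, lung CD44high, LN CD44high and MFP libraries. *Gm38226*, which led cluster 2, had 2.02 in lungL, 101.5 in lymphH and 0 and 0.73 TPM in LN CD44high. *Zfp934* had 35.2 counts per 10000 in lymphH and 4.08 and 3.84 TPM in LN CD44high, close to the 4.28 and 5.55 TPM of lung CD44low. How reads were assigned to these genes in the 2 kinds of file was not tested.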
